A study of Mus musculus with 4 samples.

Results

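The 39 DNA replication genes described here encode the proteins that prepare origins, unwind and copy DNA, supply its building blocks and repack the copied strands. They were taken from a given list of gene names, and all 39 were found among the 32285 genes listed in the count files. Macrophages were sorted from dissociated lungs of female mice and profiled by droplet single-cell RNA sequencing, which counts unique molecular identifiers (UMIs) at the 3′ ends of transcripts. Each of the 4 groups was 1 library, so differences are given with counting error alone and no test could be made. The groups were wildtype FVB mice at 16 weeks (wildtype early), MMTV-HER2 mice at 16 weeks (HER2 early), wildtype FVB mice at 32 weeks (wildtype late) and MMTV-HER2 mice at 32 weeks (HER2 late). In MMTV-HER2 mice the mammary tumour virus promoter drives the HER2 oncogene, mainly in mammary epithelium, and the macrophages studied come from the lungs of those animals. The labels give palpable tumours for late-stage animals and describe the early stage as one of early lesions. The number of mice pooled into a library and the antibodies of the sort are not given in the sources used here.

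Replication begins when origins are licensed: Cdc6 and Cdt1 load the Mcm2 to Mcm7 helicase ring, and Cdc45 with the GINS complex and Mcm10 then switch it on. Polymerases copy the strands on the ring-shaped clamp that Pcna encodes, replication factor C loads that clamp, and E2F factors raise transcription of most of these genes as a cell enters S phase. Alveolar macrophages live in the airspaces, where they clear surfactant, and are known to renew themselves by local division in the adult lung, while interstitial macrophages lie in the tissue between airspaces and vessels.

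A letter pattern of E2F factors was more frequent in promoter windows of these genes than in those of all genes, though most of them lacked it. RefSeq (build GRCm38.p6) gave a window of 300 bases, from 250 before to 50 after a start site, for 32 of the 39 genes. Those with no entry were Mcm4, Gins1, Gins2, Pole, Prim2, Rfc2 and Ccne2. The letters searched on both strands were the E2F forms TTTCCCGC, TTTCGCGC, TTTGCCGC and TTTGGCGC, each of 8 bases. At least 1 of them stood in a window of 14 of the 32 genes (43.8%), against 704 of 27025 genes in the whole table (2.6%). Mcm3, Mcm5, Mcm6, Mcm7 and Rfc3 held 2 or more, where matches can overlap on opposite strands, as in Mcm5 and Mcm6. Of 20 matches in all, 11 were centred within 50 bases of the start. The 6 windows below with a match belong to genes whose levels are described later, and that of Rrm2 is shown beside them because it holds none, while its UMIs were as concentrated in few macrophages as those of Pclaf. Capitals mark the letters, and each window is read 5′ to 3′ on its gene's strand.
Pclaf, chr9:65890073-65890372, plus strand, centred 1 base before the start: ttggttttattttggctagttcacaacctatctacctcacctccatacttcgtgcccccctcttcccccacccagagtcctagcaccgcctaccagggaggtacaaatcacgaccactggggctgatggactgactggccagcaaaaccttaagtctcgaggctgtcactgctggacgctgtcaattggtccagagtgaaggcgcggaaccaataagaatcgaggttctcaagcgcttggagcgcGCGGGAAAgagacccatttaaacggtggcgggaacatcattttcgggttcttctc
Cdt1, chr8:122567765-122568064, plus strand: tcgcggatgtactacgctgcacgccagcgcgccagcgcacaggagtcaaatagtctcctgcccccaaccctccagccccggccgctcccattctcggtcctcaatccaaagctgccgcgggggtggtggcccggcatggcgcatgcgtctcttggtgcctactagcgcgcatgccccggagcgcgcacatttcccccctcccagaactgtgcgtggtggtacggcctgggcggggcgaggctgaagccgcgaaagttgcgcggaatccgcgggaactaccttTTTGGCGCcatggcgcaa
Mcm7, chr5:138171834-138172133, minus strand: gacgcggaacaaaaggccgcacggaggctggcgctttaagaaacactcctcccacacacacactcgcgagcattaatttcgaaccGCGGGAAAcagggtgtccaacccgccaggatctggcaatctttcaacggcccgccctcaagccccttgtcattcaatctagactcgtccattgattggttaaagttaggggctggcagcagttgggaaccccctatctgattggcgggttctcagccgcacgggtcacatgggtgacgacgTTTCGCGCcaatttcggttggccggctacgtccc
Mcm3, chr1:20820263-20820562, minus strand: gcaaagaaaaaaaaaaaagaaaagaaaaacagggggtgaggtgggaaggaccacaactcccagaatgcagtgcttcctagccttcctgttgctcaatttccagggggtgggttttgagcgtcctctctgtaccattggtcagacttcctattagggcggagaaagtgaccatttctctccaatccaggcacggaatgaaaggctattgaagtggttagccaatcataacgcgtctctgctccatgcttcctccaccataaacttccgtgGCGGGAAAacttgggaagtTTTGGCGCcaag
Mcm6, chr1:128359656-128359955, minus strand: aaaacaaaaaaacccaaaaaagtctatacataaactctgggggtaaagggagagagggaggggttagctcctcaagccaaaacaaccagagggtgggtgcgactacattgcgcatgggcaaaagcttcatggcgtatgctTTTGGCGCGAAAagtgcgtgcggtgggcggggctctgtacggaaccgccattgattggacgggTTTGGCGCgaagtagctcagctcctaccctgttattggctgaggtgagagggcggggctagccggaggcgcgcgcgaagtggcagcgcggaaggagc
Rfc3, chr5:151651159-151651458, minus strand: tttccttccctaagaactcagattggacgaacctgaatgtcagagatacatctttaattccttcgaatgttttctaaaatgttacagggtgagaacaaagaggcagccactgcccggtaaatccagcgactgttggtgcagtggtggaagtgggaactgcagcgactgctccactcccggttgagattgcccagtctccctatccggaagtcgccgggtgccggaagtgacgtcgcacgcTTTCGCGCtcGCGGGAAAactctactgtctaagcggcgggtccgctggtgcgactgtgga
Rrm2, chr12:24708004-24708303, plus strand, no match: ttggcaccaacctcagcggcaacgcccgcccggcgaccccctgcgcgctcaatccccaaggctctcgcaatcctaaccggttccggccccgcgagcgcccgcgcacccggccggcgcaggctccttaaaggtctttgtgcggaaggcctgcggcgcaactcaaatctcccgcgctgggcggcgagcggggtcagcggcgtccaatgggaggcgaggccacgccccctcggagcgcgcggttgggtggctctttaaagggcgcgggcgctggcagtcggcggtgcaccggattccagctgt
The matches in Rfc3 and Pclaf lie at the start itself, those in Mcm3 and Cdt1 just after it. A match is a description of letters and no sign of binding, and the lack of one says nothing about the factor.

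A barcode counted as a cell from 1000 UMIs and 500 genes, if no more than 10% of its UMIs were mitochondrial. The early wildtype and HER2 libraries gave 5449 and 5126 cells and the late ones 5129 and 6554, at median depths of 3801 to 4478 UMIs. Values are listed below in that order of libraries. Alveolar macrophages (AM cells) were those in which Chil3, Ear1, Ear2, Fabp1, Lpl and Plet1 made up at least 0.4% of UMIs and exceeded C1qa, C1qb and C1qc. They numbered 4833, 4413, 4245 and 5702, and other alveolar markers (Marco, Pparg, Car4, Krt79, Mrc1, Itgax and Siglecf) summed to 2252 to 2884 UMIs per 1000000 UMIs (CPM) in them. Interstitial macrophages (IM cells, 330, 455, 633 and 661) held at least 5 C1q UMIs, more than of the alveolar genes. Markers of interstitial macrophages outside that rule were far higher in IM than in AM cells: Cx3cr1 was at 539 to 714 CPM against 3.84 to 11.7, Ms4a7 at 423 to 476 against 4.02 to 8.23 and Ccr2 at 126 to 278 against 0.875 to 3.26. The remaining cells numbered 191 to 286 a library. Pairs of libraries shared 1 to 13 cell barcodes. Free RNA made up an estimated 1.93 to 5.70% of AM UMIs and 5.94 to 11.2% of IM UMIs. The estimate compares genes foreign to macrophages, red cell genes among them, between cells and near-empty barcodes. Red cell RNA in HER2 late IM cells, described below, can therefore raise their value of 10.9%. Levels are CPM of all UMIs of a class in a library, not divided by length because a 3′ UMI is counted once per molecule, and all intervals are 95% and cover counting error only.

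In AM cells the replication genes together were at much the same level in all 4 libraries, with the highest sum in wildtype early and the lowest in HER2 late. Their summed level was 769 and 715 CPM in the early wildtype and HER2 libraries and 732 and 656 CPM in the late ones. HER2 was below wildtype by a log2 ratio of -0.10 at the early stage (interval -0.14 to -0.07) and of -0.16 at the late stage (-0.19 to -0.13). Late over early, the log2 ratio was -0.07 in wildtype (-0.10 to -0.04) and -0.12 in HER2 (-0.16 to -0.09). All 4 ratios are under 1.2-fold. The early ratio turned to 0.03 once cells with 3 or more UMIs of a list of 22 mitosis genes were left out, and wildtype late over early then turned to 0.14. That cut is on unthinned UMIs, which deeper cells reach more readily. It also removes many of the cells richest in replication UMIs, and what lies behind these shifts was not tested. Scaling libraries by the median of gene ratios in place of UMI totals brought the late ratio to -0.01 and that of wildtype late over early to -0.19. T cell markers (Cd3d, Cd3e, Cd3g, Trac and Trbc2) summed to 30.8 CPM in wildtype early AM cells and to 1.62 to 2.72 in the others. Only 27 wildtype early AM cells held 2 or more Cd3 UMIs, with 2.21% of the replication UMIs, and without them the sum there was 760.3 CPM.

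**Figure D1:**
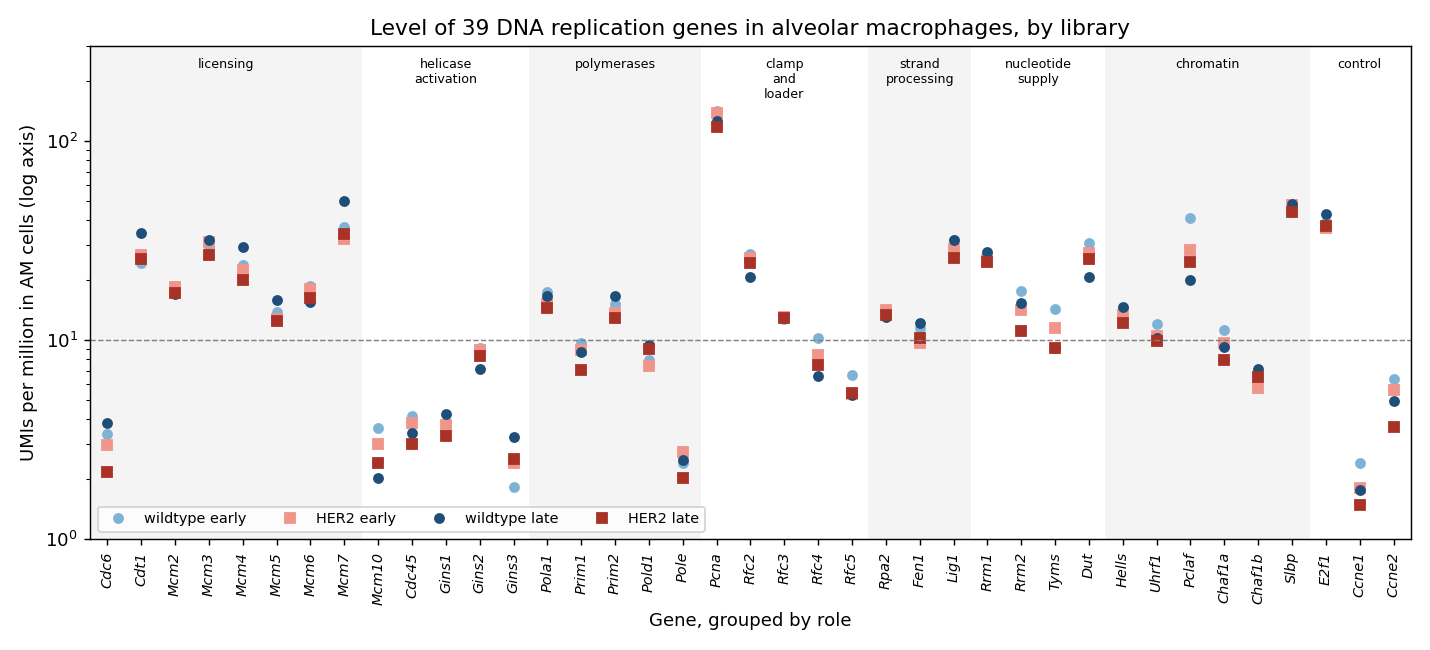
Level of each of the 39 genes in AM cells, in CPM on a log axis, with 1 point per library and genes grouped by role; the dashed line is the 10 CPM floor. Pcna stands above all others at 118 to 142 CPM, and the points of most genes lie close together, while those of Pclaf, Tyms, Dut, Mcm7 and Cdt1 are spread.

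Single genes differed between libraries in ways that the sum does not show. A gene was compared where its mean over the 4 libraries reached 10 CPM, which 24 of the 39 did, and counted as higher or lower from 1.2-fold. At the early stage 0 of the 24 were higher in HER2, where 1.4% of all genes past the floor were, and 3 were lower (Pclaf, Rrm2 and Tyms), against 2.74% of all genes. At the late stage Pclaf and Dut were higher in HER2, 2 of 24 against a background of 6.52%. Mcm4, Mcm5, Mcm7, Lig1, Hells, Rrm2, Cdt1 and Prim2 were lower there, and these 8 of 24 are near the background of 38.5%. Between wildtype late and early, Mcm4, Mcm7 and Cdt1 were higher (3 of 24, background 34.2%) and Pclaf, Tyms, Rfc2 and Dut were lower (4 of 24, background 10.3%). In HER2 late over early 0 were higher (background 3.76%) and Rrm2 and Tyms were lower (2 of 24, background 3.5%).

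**Figure D2:**
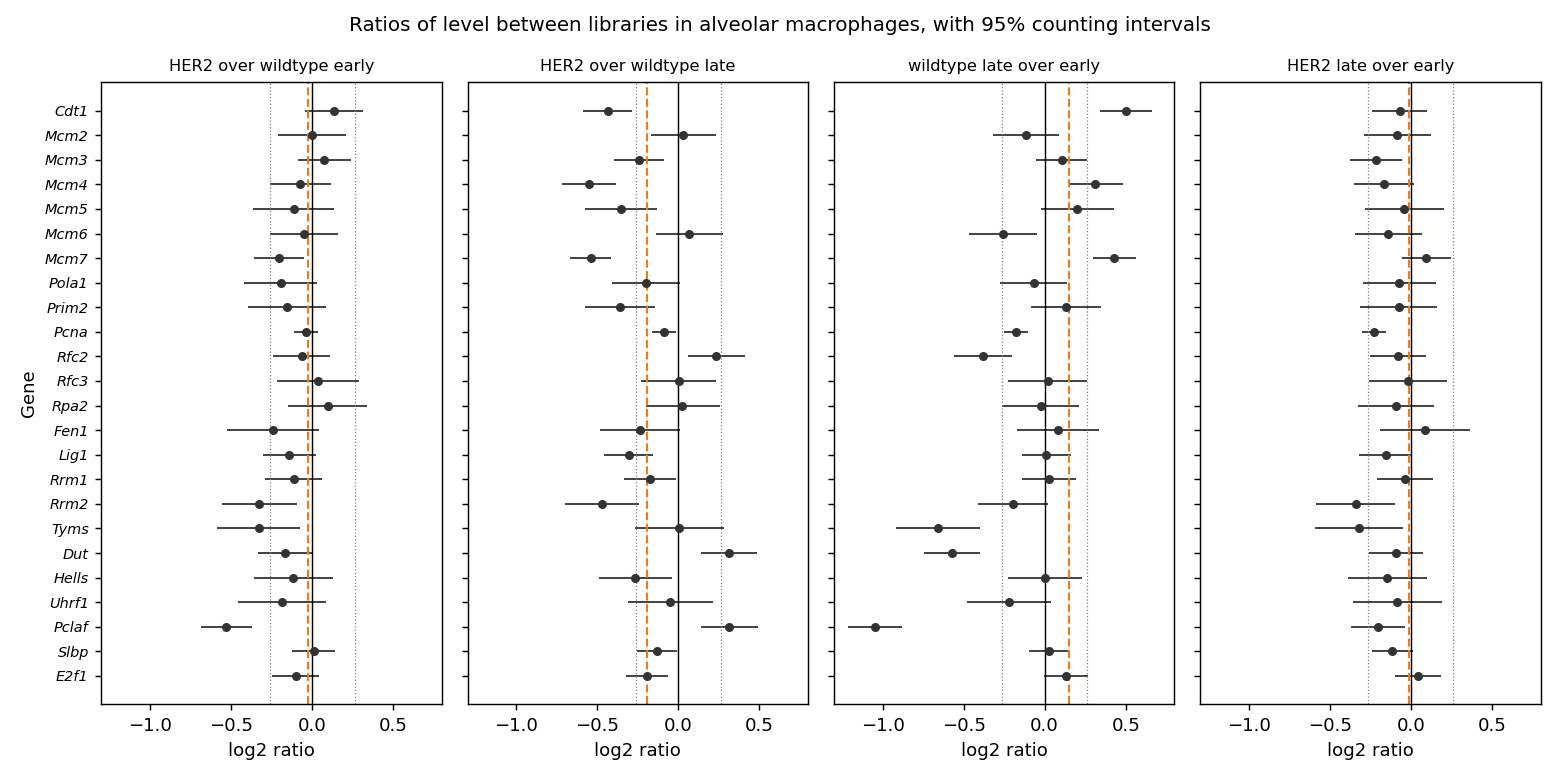
Log2 ratio of level in AM cells for the 24 genes past the floor, with 95% counting intervals, in each of the 4 comparisons; the dashed line is the median over all genes and the dotted lines mark 1.2-fold. Pclaf is farthest from 0 in wildtype late over early at -1.04, and the Mcm4, Mcm7 and Cdt1 points lie left of 0 at the late stage and right of it in wildtype late over early.

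The median log2 ratio of the 24 genes, on the log2(CPM + 1) scale, was -0.11 at the early stage, where that of all genes was -0.02, and -0.18 at the late stage, where that of all genes was -0.20. For wildtype late over early it was 0.01 against 0.15 for all genes, and for HER2 late over early -0.08 against -0.01. Wildtype late therefore stood apart over all genes, and scaling by the median of ratios moved the median of all genes to -0.05 at the late stage and to 0.04 in wildtype late over early. With that scaling 3 of the 24 genes were higher and 4 lower at the late stage, while all genes were 13.1% higher and 15% lower. Mcm5, Lig1, Hells and Prim2 were then no longer counted as lower, and Rfc2 was counted as higher. Wildtype late over early then gave 2 higher and 8 lower, and all genes 20.1% higher and 16.2% lower, with Mcm4 no longer higher and Mcm6, Pcna, Uhrf1 and Rrm2 added to the lower ones. The HER2 and the stage comparisons share libraries, so they are not independent of each other.

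Licensing genes were the group with the widest difference at the late stage. Their 8 members summed to 169 and 165 CPM in the early wildtype and HER2 libraries and 198 and 155 CPM in the late ones, so wildtype late was the highest library and HER2 late the lowest. The late log2 ratio of HER2 over wildtype was -0.35 (interval -0.41 to -0.29), and that of wildtype late over early was 0.23 (0.17 to 0.29). The medians of all genes in those comparisons lay the same way, at -0.20 and 0.15, and with the median of ratios the licensing sum gave -0.20 and 0.11, both under 1.2-fold. Mcm7, a helicase subunit (chromosome 5, 138164583 to 138172422, GRCm38), stood at 36.9 and 32.0 CPM in the early libraries and at 49.8 and 34.2 CPM in the late ones. Only the wildtype late value lies apart, and HER2 late was 1.45-fold below it (log2 -0.54, -0.67 to -0.41). With the median of ratios that log2 ratio was -0.39. A stretch of the last 300 bases of Mcm7 is nearly identical to one in Gm5487, so its count could be shared with that gene. Mcm4, another subunit (chromosome 16, 15623897 to 15637400), was at 23.7, 22.5, 29.4 and 20.1 CPM in the same order of libraries. HER2 late was 1.47-fold below wildtype late (log2 -0.55, -0.72 to -0.38), again with wildtype late highest. Its wildtype ratio of late over early (log2 0.31, 0.15 to 0.48) was 0.20 with the median of ratios, which ends the count as higher. Cdt1, the loader of the ring (chromosome 8, 122568015 to 122573554), gave 24.4, 26.8, 34.5 and 25.5 CPM. Its wildtype late level was 1.42-fold above wildtype early (log2 0.50, 0.34 to 0.66) and HER2 late was 1.35-fold below wildtype late (log2 -0.44, -0.59 to -0.29).

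The subunits of one helicase ring differed in their order of libraries. Mcm3 (chromosome 1, 20802968 to 20820312) was at 29.5, 31.1, 31.7 and 26.8 CPM, with a late log2 ratio of -0.24 (-0.40 to -0.09). Mcm5 was at 13.8, 12.8, 15.9 and 12.4 CPM, and its late log2 ratio was -0.35 (-0.57 to -0.13), or -0.20 with the median of ratios. Mcm2 at 17.0 to 18.4 CPM and Mcm6 at 15.6 to 18.6 CPM had late log2 ratios of 0.03 and 0.07, with intervals that include 0. Mcm6 in wildtype late was therefore the lowest of its libraries, where Mcm4, Mcm5 and Mcm7 were highest. These subunits form one complex with equal parts of each, but the values here are RNA and not protein. The last 300 bases of Mcm5 hold a stretch nearly identical to stretches in 4 other genes. Cdc6, which works with Cdt1, had 54 to 83 UMIs a library (2.18 to 3.85 CPM) and fell under the floor.

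Genes that switch the helicase on were all under the floor. Mcm10, Cdc45, Gins1, Gins2 and Gins3 together summed to 19.6 to 22.6 CPM, and none of the 4 ratios of that sum had an interval clear of 0. Gins2 was the most frequent among them at 7.14 to 9.10 CPM. Mcm10 had 83, 55, 44 and 67 UMIs, and Gins3 had 42, 44, 70 and 70.

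The polymerase genes summed to 52.6 and 48.0 CPM in the early wildtype and HER2 libraries and 53.9 and 45.6 CPM in the late ones. HER2 was below wildtype in that sum by a log2 ratio of -0.24 at the late stage (-0.36 to -0.12), close to the median of all genes, and of -0.09 with the median of ratios. Pola1, the catalytic subunit of the polymerase that starts strands, was at 14.5 to 17.5 CPM. Prim2, a primase subunit, was at 15.1, 13.6, 16.6 and 12.9 CPM, and its late log2 ratio of -0.36 (-0.58 to -0.15) passed 1.2-fold, but was -0.21 with the median of ratios, which ends the count as lower. Prim1, the other primase subunit, at 7.11 to 9.62 CPM, Pold1 of the lagging-strand polymerase at 7.41 to 9.41 and Pole of the leading-strand polymerase at 2.03 to 2.74 stayed under the floor.

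Pcna, which encodes the sliding clamp (chromosome 2, 132249162 to 132253314), gave 17.1 to 19.3% of all replication UMIs of a library. Its level was 142 and 138 CPM in the early wildtype and HER2 libraries and 125 and 118 CPM in the late ones, from 2518 to 3255 UMIs. HER2 and wildtype differed by a log2 ratio of -0.04 at the early stage (-0.11 to 0.04) and of -0.09 at the late stage (-0.16 to -0.01), and the second turned to 0.06 with the median of ratios. Both late libraries were below both early ones, by a log2 ratio of -0.18 in wildtype (-0.25 to -0.10) and of -0.23 in HER2 (-0.30 to -0.15). The wildtype ratio was -0.29 with the median of ratios. Among the clamp loader genes, Rfc2 was at 27.1, 25.9, 20.8 and 24.5 CPM, lowest in wildtype late, where it was 1.30-fold below wildtype early (log2 -0.38, -0.56 to -0.20). Rfc3 was at 12.8 to 13.1 CPM in all libraries. Rfc4 at 6.59 to 10.2 CPM and Rfc5 at 5.33 to 6.65 were under the floor.

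Lig1, the ligase that joins lagging-strand pieces (chromosome 7, 13277283 to 13311433), was at 31.8 and 28.8 CPM in the early wildtype and HER2 libraries and 32.0 and 25.9 CPM in the late ones. The late log2 ratio was -0.31 (-0.46 to -0.15), but -0.12 when every cell was thinned to 2000 UMIs and -0.16 with the median of ratios, each of which ends the count as lower. Fen1, the flap nuclease that trims those pieces, was at 9.71 to 12.2 CPM. Rpa2, a subunit of the single-strand binding complex, was at 13.1 to 14.2 CPM, and its 4 intervals all include 0.

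The nucleotide supply genes were highest in wildtype early, at 90.1 CPM, with HER2 early at 78.1 and the late wildtype and HER2 libraries at 73.0 and 70.6. Wildtype late over early gave a log2 ratio of -0.30 (-0.40 to -0.21), where all genes had a median of 0.15. Tyms, thymidylate synthase (chromosome 5, 30058202 to 30073617), was at 14.4, 11.5, 9.14 and 9.18 CPM in the order given above. Wildtype late was 1.58-fold below wildtype early (log2 -0.66, -0.92 to -0.40), a ratio that came to -0.09 without the cells with 3 or more mitosis UMIs. The early ratio of HER2 over wildtype (log2 -0.33, -0.58 to -0.07) was then -0.15 and that of HER2 late over early (log2 -0.32, -0.59 to -0.05) -0.19, both short of 1.2-fold. Dut, which removes dUTP (chromosome 2, 125247190 to 125258608), was at 30.8, 27.4, 20.7 and 25.7 CPM, and wildtype late was 1.49-fold below wildtype early (log2 -0.57, -0.75 to -0.40). Without the cells with mitosis UMIs that ratio was -0.11. Dut in HER2 late was 1.24-fold above wildtype late (log2 0.31, 0.14 to 0.49), but the log2 ratio was 0.11 after thinning and 0.23 without the cells with mitosis UMIs, each of which ends the count as higher. Rrm1, the large subunit of ribonucleotide reductase (chromosome 7, 102441695 to 102469771), was at 27.3, 25.2, 27.8 and 24.6 CPM, within 1.2-fold throughout. Its small subunit Rrm2 was at 17.7, 14.1, 15.4 and 11.1 CPM and below wildtype in HER2 by a log2 ratio of -0.33 at the early stage (-0.56 to -0.10) and of -0.47 at the late stage (-0.70 to -0.24).

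Pclaf, a small protein that binds the clamp (chromosome 9, 65890237 to 65903266), differed most of all 24 genes. It was at 41.1 and 28.5 CPM in the early wildtype and HER2 libraries (940 and 519 UMIs) and at 19.9 and 24.8 CPM in the late ones (430 and 683 UMIs). The 2 wildtype libraries held its highest and its lowest value, and the HER2 libraries lay between them. Wildtype late was 2.06-fold below wildtype early (log2 -1.04, -1.21 to -0.88). HER2 early was 1.44-fold below wildtype early (log2 -0.53, -0.69 to -0.37), and HER2 late was 1.24-fold above wildtype late (log2 0.31, 0.14 to 0.49). Without cells with 2 or more Cd3 UMIs the wildtype early level was 39.4 CPM and the early log2 ratio was -0.47. Leaving out the cells with mitosis UMIs instead brought the early ratio to -0.27 and the late ratio to 0.77. Those cells held most Pclaf UMIs, and most of the cells that remain held it far under the 10 CPM floor. Both ratios therefore rest on few UMIs, are given without intervals, and are not read as a difference. The late ratio was 0.24 after thinning and 0.19 without likely doublets, each short of 1.2-fold. Likely doublets were set by depth alone, and the cells richest in Pclaf were deep ones, so that cut can also remove them. A stretch of its last 300 bases is nearly identical to one in another gene.

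Other genes that act on copied chromatin varied less. Slbp, which binds histone messenger RNA (chromosome 5, 33634952 to 33652574), was at 47.2, 47.5, 48.0 and 43.8 CPM, and its late log2 ratio of -0.13 turned to 0.02 with the median of ratios. Hells, a chromatin remodeller, was at 14.6, 13.4, 14.6 and 12.1 CPM, and Uhrf1, which guides maintenance of DNA methylation, at 9.94 to 12 CPM. Chaf1a and Chaf1b, subunits of the factor that places histones on new DNA, were under the floor at 7.94 to 11.2 and 5.76 to 7.19 CPM. The end of Chaf1a is nearly identical in part to 9 other genes. Among the control genes, the transcription factor E2f1 (chromosome 2, 154559407 to 154569892) was at 39.2, 36.5, 42.9 and 37.6 CPM, within 1.2-fold in all 4 comparisons. The E-type cyclins that drive entry into S phase were rare, Ccne1 at 1.49 to 2.41 CPM and Ccne2 at 3.66 to 6.39 CPM.

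A sizeable share of the replication UMIs of AM cells came from few cells. Cells with 20 or more of these UMIs numbered 161 and 106 in the early wildtype and HER2 libraries and 118 and 134 in the late ones. They gave 38.2, 31.1, 30.4 and 28.4% of the replication UMIs, in that order, while 17.9 to 26.0% of AM cells had none. To compare cells at 1 depth, each was thinned to 2000 UMIs, which left out 357, 490, 171 and 340 shallower AM cells. At least 3 replication UMIs then stood in 12.6% (11.6 to 13.6) and 13.0% (11.9 to 14.1) of AM cells of the early wildtype and HER2 libraries. The late ones gave 12.9% (11.8 to 13.9) and 11.3% (10.5 to 12.2). Unthinned, these shares were 34.1, 29.4, 39.3 and 33.5%. With 10 or more UMIs after thinning the shares were 2.50, 1.84, 1.72 and 1.27%, so the cells richest in these UMIs were most frequent in wildtype early and least in HER2 late. The intervals of those libraries were 2.06 to 3% and 0.986 to 1.60%. For 3 UMIs, 590, 522, 645 and 718 AM cells lay 1 UMI under that minimum. Resident B cells of the lung mostly rest. At the same depth 2 of 16, 2 of 24, 2 of 10 and 1 of 16 barcodes with 2 or more UMIs of Cd79a, Cd79b and Ms4a1 reached 3 replication UMIs, at unthinned medians of 1654 to 3558 UMIs. With these few barcodes the B cell shares cannot be told from the AM ones, so 3 UMIs are not read as division. None of these barcodes reached 10, which allows up to 14.2% of the 24 in HER2 early by an exact interval. Free RNA would add 0.0262 to 0.0979 replication UMIs to an AM cell at that depth.

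The genes differed widely in how far they were restricted to cells that also held the others. For each gene, AM cells with at least 5 UMIs of the other 38 genes were set against the rest, so the gene itself did not choose the cells. These were 2350 to 3097 of 19193 AM cells, with 18.1 to 23.5% of AM UMIs, and they are a range of a score, not a cell type. Such cells were also deeper: with 5 or more UMIs of all 39 genes the median depth was 5493 to 6698 UMIs, against 3728 to 4752 over all AM cells. All 39 genes were at a higher level in the richer cells, by a median of 5.12-fold over genes. The share of all genes that were higher there was not counted. Mcm10 (59.0-fold), Rrm2 (37.9), Pclaf (34.4), Ccne2 (24.7), Uhrf1 (23.1), Hells (12.3), Cdc45 (12.2), Cdc6 (11.6) and Pole (10.2) were more than 10-fold higher. At the other end Rpa2 (2.88-fold), Gins3 (2.69), Rfc2 (2.35), Slbp (2.12), Prim2 (2.04) and E2f1 (1.75) were under 3-fold. Of the genes at either end, Mcm10, Ccne2, Cdc45, Cdc6, Pole and Gins3 were under the 10 CPM floor, so their ratios rest on few UMIs. Of all Pclaf UMIs, 91.3% lay in the richer cells, of Rrm2 92.1% and of Mcm10 94.8%, against 41.2% of Pcna, 36.2% of Slbp and 32.5% of E2f1. Pcna was 3.18-fold higher in the richer cells and still at 93.2 CPM in the rest. By library E2f1 stood at 1.60 to 1.96-fold, the lowest ratio in 3 of 4 libraries (Prim2 was lower in wildtype early), while Pclaf stood at 26.5 to 53.0-fold. Genes with E2F letters had a median of 6.05-fold and those without 5.02-fold, 14 and 18 genes, given as a description.

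**Figure D3:**
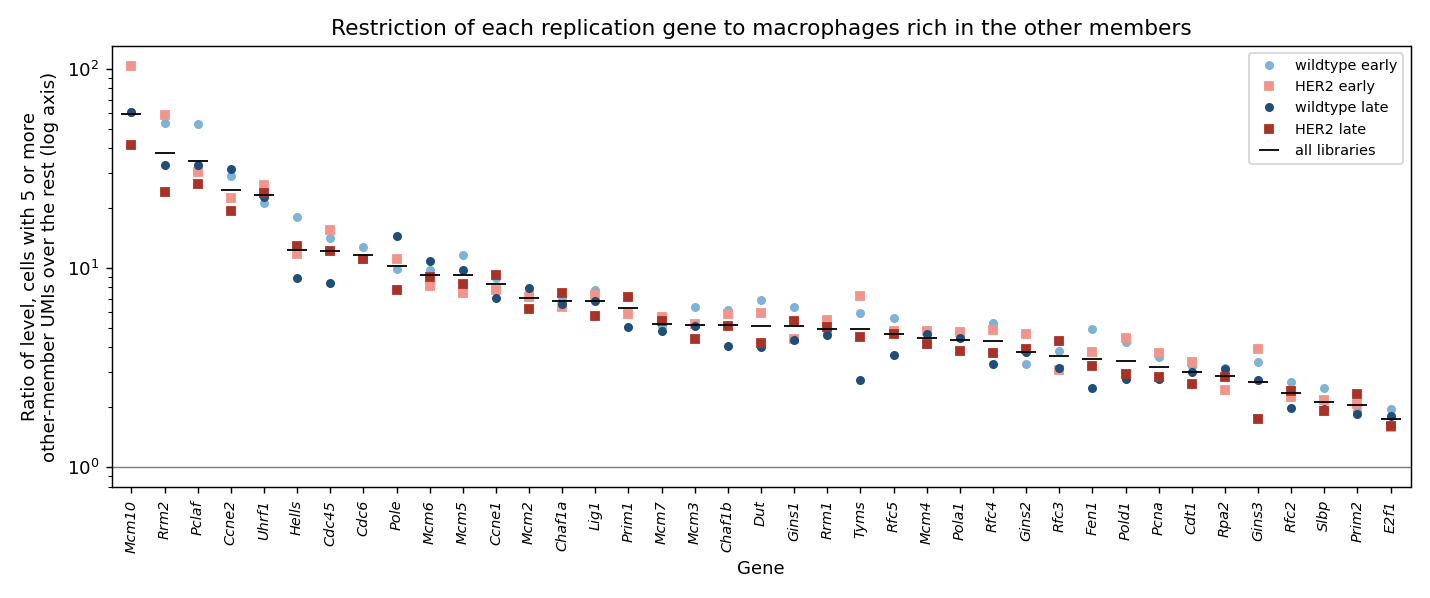
For each gene, the ratio of its level in AM cells with 5 or more UMIs of the other 38 genes to that in all other AM cells, on a log axis, with 1 point per library and a dash for the libraries pooled. Mcm10, Rrm2 and Pclaf, at the left, lie at 34.4-fold and above when pooled, and the ratios fall to 1.75-fold for E2f1 at the right. Genes under the 10 CPM floor, such as Mcm10, are included.

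Splitting the same cells by mitosis genes separated genes within the group. AM cells were placed in 4 ranges: 15 or more UMIs of the other replication genes, 3 or more UMIs of the 22 mitosis genes (such as Mki67, Ccnb1 and Cdk1), both, or neither. The limit of 15 was chosen after seeing the data, and 9 to 14 cells a library lay 1 UMI under it. For all 39 genes together there were 69, 53, 84 and 86 cells with replication UMIs only, 144, 91, 89 and 110 with both, and 154, 97, 163 and 193 with mitosis UMIs only. The 39 genes together were at 4752 to 5632 CPM in cells with both and at 2698 to 3085 CPM in cells with replication UMIs only. Most single genes therefore lay the same way: 32 of the 39 were higher in cells with both, in all 4 libraries. Mcm2 and Mcm4 were lower there in all 4 libraries, and Mcm3, Mcm6, Pold1, Rfc2 and E2f1 differed in direction between libraries. With the lower limit of 5 all 39 genes were highest in cells with both, in all 4 libraries, so the place of Mcm2 and Mcm4 depends on that limit. The share of all genes that were higher in cells with both was not counted at either limit.

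Pclaf and Rrm2 had the widest gap between cells with replication UMIs only and cells with both. In cells with replication UMIs only, Pclaf was at 55.3 and 47.0 CPM in the early wildtype and HER2 libraries and at 17.0 and 39.9 CPM in the late ones. In cells with both it was at 645, 637, 486 and 548 CPM, 14.5-fold higher by the means over libraries. In cells with mitosis UMIs only it was at 65.2 to 131 CPM and in the rest at 1.09 to 2.43. Rrm2 went from 8.37 to 23.4 CPM in cells with replication UMIs only to 257 to 385 in cells with both. Mcm2, by contrast, was at 107 to 126 CPM with replication UMIs only, at 94.9 to 114 with both and at 5.30 to 12.6 with mitosis UMIs only. Pcna was at 350 to 571, 577 to 857 and 124 to 155 CPM in those ranges. Median depth was 6583 to 7227 UMIs in cells with replication UMIs only, 6472 to 7693 with both and 3637 to 4628 in the rest. Of the cells with both, 7 held 2 or more Cd3 UMIs in wildtype early and 0 in each other library.

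**Figure D4:**
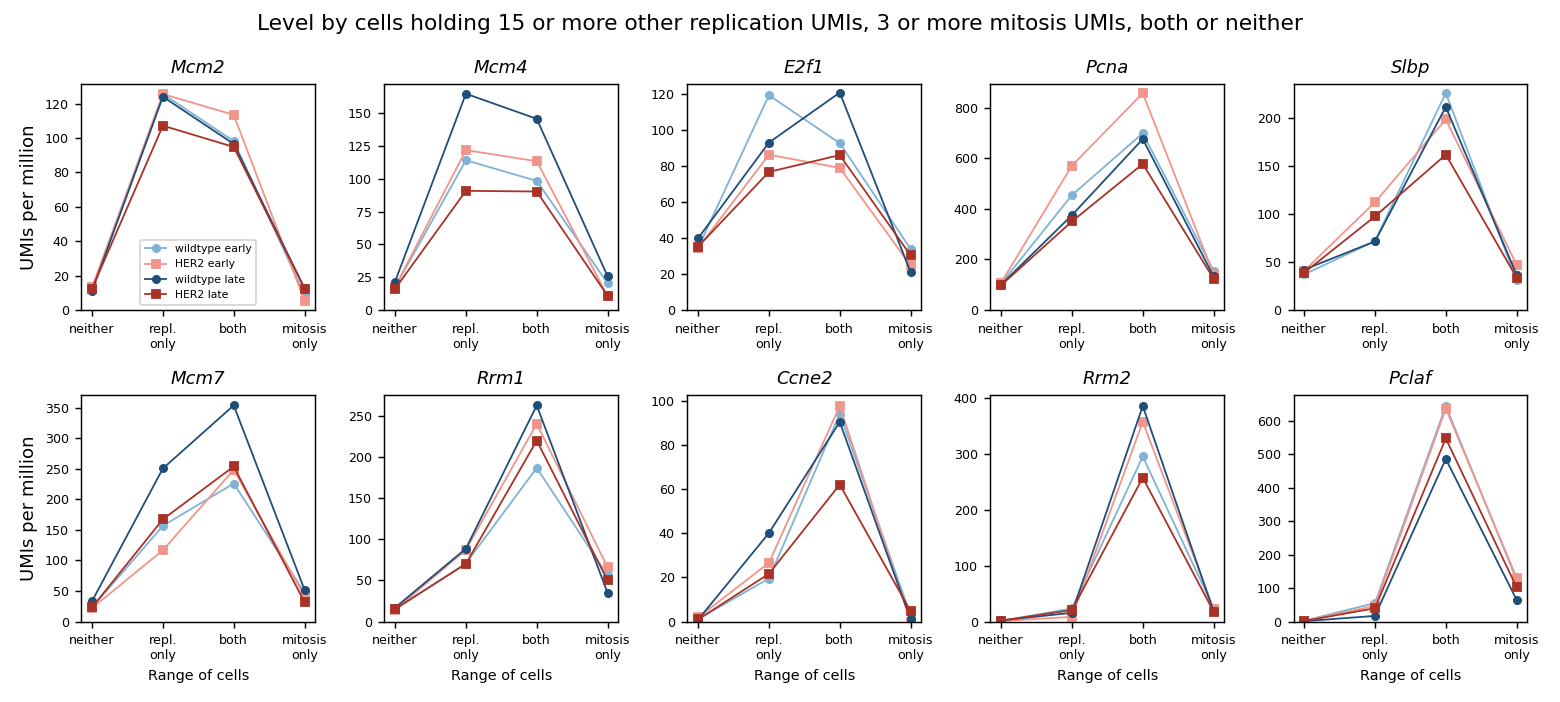
Level of 10 of the genes, in CPM, in AM cells with neither, with 15 or more other replication UMIs only, with both those and 3 or more mitosis UMIs, and with mitosis UMIs only, with 1 line per library. Mcm2 and Mcm4 are highest with replication UMIs only, while Pclaf, Rrm2 and Ccne2 are highest with both.

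Other genes of replication and division were read from 6 lists with no member among the 39, in AM cells at the same floor and fold. At the early stage the mitosis genes stood out: 12 of 14 past the floor were lower in HER2, against 2.74% of all genes, and 0 higher, with a median log2 ratio of -0.49. Wildtype late over early gave 9 lower and 0 higher of the same 14, against 10.3% and 34.2% of all genes, with a median of -0.40, while the late stage gave 1 higher and 1 lower, with a median of 0.05. Ube2c, a ubiquitin-conjugating enzyme of mitotic exit, was at 39.3 and 23.1 CPM in the early wildtype and HER2 libraries and at 15.7 and 25.9 CPM in the late ones. As for Pclaf, wildtype early was the highest library and wildtype late the lowest. Cenpf, a kinetochore protein, was at 32.6, 16.8, 19.8 and 21.5 CPM, and Prc1, which bundles the spindle's microtubules, at 28.5, 16.1, 15.5 and 16.3. Wildtype early was highest for each of these.

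The remaining lists held few such genes at the early stage, where 1.4% of all genes were higher and 2.74% lower. Of origin recognition and firing genes 1 of 8 was lower there, of polymerase and fork genes 2 of 15, and of nucleotide supply (5), chromatin and methylation (6) and control genes (13) 0, with 0 higher in any of them. At the late stage these lists gave 2 higher and 4 lower of 8, 3 and 3 of 15, 1 and 1 of 5, 0 and 3 of 6, and 1 and 5 of 13. All genes were 6.52% higher and 38.5% lower there, so nothing is read from the counts of lower genes in lists this short. Of the single genes, Dnmt1, the maintenance DNA methyltransferase, was at 57.1, 57.9, 83.6 and 58.0 CPM, Orc3 of the origin recognition complex at 19.1, 18.2, 26.3 and 18.6, and the nuclease Dna2 at 19.2, 18.9, 24.9 and 15. Ccnd2, a D-type cyclin, was at 281, 308, 428 and 334 CPM. In contrast Rpa3, the smallest subunit of the single-strand binding complex, was at 13.0, 13.2, 7.19 and 11.7 CPM, and Rnaseh2c of ribonuclease H2 at 46.8, 44.4, 26.3 and 37.0, both lowest in wildtype late. In wildtype late over early the lists gave 3 higher and 3 lower of 8, 1 and 4 of 15, 1 and 2 of 5, 2 and 0 of 6, and 2 and 1 of 13, against 34.2% higher and 10.3% lower among all genes. HER2 late over early gave 0 and 0 of 8, 0 and 2 of 15, 0 and 0 of 5, 0 and 0 of 6, 0 and 3 of 13, and for mitosis 1 and 0 of 14, against 3.76% higher and 3.5% lower among all genes.

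In IM cells the replication genes stood highest in wildtype early, together with T cell transcripts. Their sum was 1074 and 687 CPM in the early wildtype and HER2 libraries and 686 and 773 CPM in the late ones. Median depths of IM cells were 6440, 4502, 3219 and 5234 UMIs in that order, deepest in wildtype early and shallowest in wildtype late. Cells with 20 or more replication UMIs numbered 31, 10, 9 and 31 and held 58.3, 27.5, 16.4 and 39.7% of these UMIs. HER2 over wildtype gave a log2 ratio of -0.64 at the early stage (-0.74 to -0.55) and of 0.17 at the late stage (0.08 to 0.26). The T cell markers summed to 1466 CPM in wildtype early IM cells, against 181, 120 and 48.1, and the thymocyte markers (Dntt, Rag1, Rag2, Cd8b1, Ptcra and Cd4) to 698 against 64.7, 61.0 and 30.5. Dntt, Rag1 and Rag2 were at 0 in HER2 late IM cells and Ptcra in HER2 early, and all others were detected. Of the 330 wildtype early IM cells, 113 (34.2%) held 2 or more Cd3 UMIs and 48.2% of the replication UMIs, against 2.42 to 4.62% of cells elsewhere. Without such cells the sums were 920 CPM, 646, 683 and 769, and the early log2 ratio was -0.51 (-0.62 to -0.40). Without cells with 3 or more mitosis UMIs it was -0.09. That cut is on unthinned UMIs, which deeper cells reach more readily, and wildtype early IM cells were the deepest. It can also remove the cells that hold many replication UMIs, and what lies behind the change was not tested. The part of T-lineage RNA in what remains without Cd3 cells was not tested.

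Of the 39 genes, 16 reached 20 CPM in the mean of the IM libraries, Pclaf mainly through wildtype early. At the early stage 10 were lower in HER2 (28.2% of all genes were) and 0 higher (15.4%), and at the late stage 9 were higher (13%) and 3 lower (33.6%). Pclaf was at 81.0 and 13.4 CPM in the early wildtype and HER2 libraries and at 11 and 20.7 CPM in the late ones. Without the cells with Cd3 UMIs wildtype early was at 63.9 CPM, still the highest library. Dut was at 81.8, 37.5, 20.3 and 37.5 CPM and Pcna at 117, 73.8, 65.8 and 85.4, both with wildtype late lowest, as in AM cells for Dut. HER2 late was above wildtype late for Pclaf (log2 0.91, 0.24 to 1.62) and Dut (log2 0.88, 0.40 to 1.40), from 25 to 145 UMIs each. Mcm7 was at 44.8, 37.5, 54.3 and 42.4 CPM, highest in wildtype late, as in AM cells, though its late interval of -0.70 to -0.01 barely clears 0. The late sum had a log2 ratio of 0.01 after thinning each cell to 2000 UMIs. Red cell markers stood at 237 CPM in HER2 late IM cells and at 0.442 in wildtype late, and their part was not tested. In wildtype late over early 1 of the 16 was higher (25.2%) and 10 were lower (30.1%), and in HER2 late over early 2 were higher (9.06%) and 0 lower (18.8%).

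In the remaining cells the wildtype early sum of 1675 CPM was far above the 447, 532 and 737 CPM of the other libraries. Cells with 2 or more Cd3 UMIs held 80.7% of it, and without them the sums were 588, 404, 517 and 673 CPM. Pclaf there was at 177 CPM in wildtype early against 11 to 48.1, and Rrm2 at 86.7 against 2.58 to 22.0. Of the 39 genes, 15 reached 20 CPM in the mean of these cells. At the early stage 0 were higher in HER2 (28% of all genes were) and 15 lower (29.7%), and at the late stage 9 were higher (22.5%) and 2 lower (29.8%). In wildtype late over early 0 were higher (36%) and 13 lower (28.4%), and in HER2 late over early 13 were higher (20.8%) and 0 lower (19.2%). Some genes passed the floor mainly through wildtype early, such as Hells at 50.2 CPM there against 8.39, 4.65 and 17.1. Tyms likewise was at 60.1 CPM there against 11.6, 7.44 and 31.0. The counts of genes below wildtype early are thus partly set by the floor, and nothing is read from them. Cells with 20 or more replication UMIs numbered only 22, 3, 2 and 7 and held 73.9, 16.9, 16.3 and 49.9% of these UMIs. The levels of wildtype early and HER2 late therefore lean on few cells, and the genes move together in them. T cell markers summed to 2487 CPM in wildtype early and to 284 to 571 in the others, and epithelial markers ranged from 411 to 28422 CPM and red cell markers from 10.3 to 1418, so these cells were not alike between libraries.

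**Figure D5:**
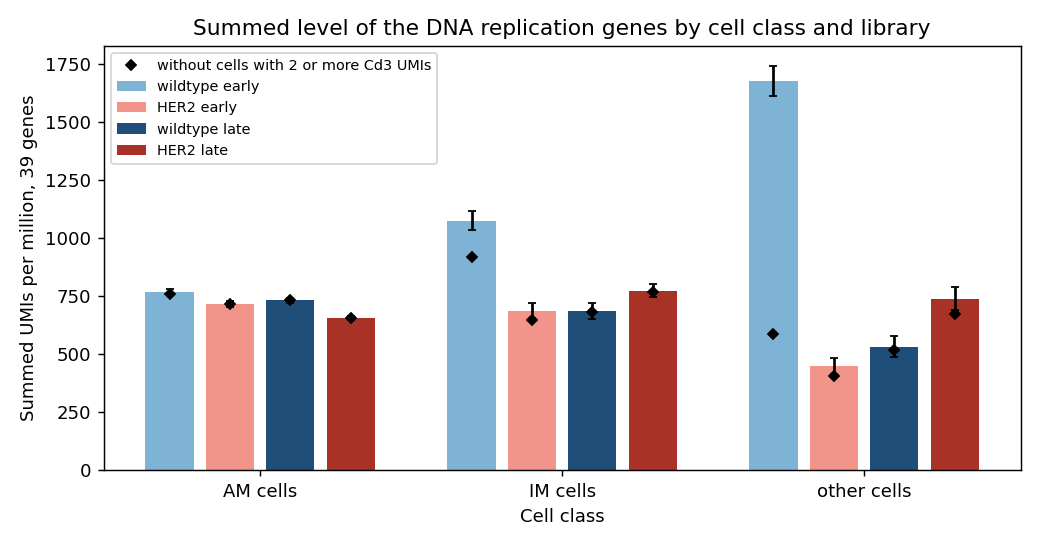
Summed level of the 39 genes in CPM in AM, IM and other cells of each library, with bars from 0 and exact Poisson 95% intervals; diamonds show the sum without cells with 2 or more Cd3 UMIs. AM bars lie between 656 and 769, and the wildtype early bars of IM and other cells fall to 920 and 588 at the diamonds.

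The authors' deposited table of average AM signal held all 39 genes, and its direction could be set beside that of the counts. In the authors' deposited table the summed signal gave a log2 ratio of HER2 over wildtype of -0.05 at the early stage and of -0.17 at the late stage. The authors' deposited table lay on the same side as the counts for 32 of 39 genes at the early stage and for 35 at the late stage, and for 19 and 21 of the 24 genes past the floor. Pclaf in the authors' deposited table was at -0.43 and 0.32 on the log2 scale, early and late. Dut in the authors' deposited table was at 0.00 at the early stage and 0.28 at the late stage, and Tyms there was at -0.18 at the late stage, where the counts gave 0.01. The share of all genes on the same side was not counted, so these counts say nothing particular to the members. Both the deposited signal and the counts come from the same libraries, so this adds no independent evidence.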

How the data were processed

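The authors deposited raw UMI counts per gene and barcode, unfiltered, and average signal tables of AM cells, 1 for each stage, whose columns sum to 10000 over 15906 genes. The sources used here do not say how those cells were chosen. Cell Ranger 5.0.1 and mm10 are named per the submitters' processing notes, and Cell Ranger 4 per the file headers. Within each library the UMIs of a class were added up and divided by the class total (CPM). Ratios carry exact conditional binomial intervals and shares exact Clopper-Pearson intervals, at 95%. Medians used a pseudocount of 1 CPM. The floor was 10 CPM in AM and 20 CPM in IM and other cells, and the step 1.2-fold. Free RNA came from barcodes with 10 to 100 UMIs. No doublet caller was run, and likely doublets were set by depth alone, with a factor of 3. The members and lists were chosen with earlier results of these data known. Values per library are printed for the 10 members with the highest mean AM level and for any whose interval lay wholly beyond 1.2-fold (Mcm4, Mcm7, Pclaf, Tyms, Cdt1 and Dut). Mcm5, Mcm10, Gins3, Prim2, Rfc2, Rrm2, Hells and Mcm2 were added after their values were seen. Other pathway genes were named, at most 3 a direction and comparison, by the interval bound nearest to 0. Near-identical stretches were sought with BLAST 2.17.0 (95% identity, 90 bases or more of the last 300) in GENCODE M21, which also gave gene positions. Total UMIs per library were 28786682 to 39228655. Software was numpy 2.4.6, scipy 1.17.1 and pandas 2.3.3. The ratios were tested on simulated Poisson counts at the all-cell totals of the early wildtype and HER2 libraries. Such counts do not cluster in few cells, so that test does not show how the intervals hold for genes that do.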

Additional observations from a re-analysis of the deposited data

Results flagged for a closer look

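Pclaf in AM cells lay on opposite sides at the 2 stages: the log2 ratio of HER2 over wildtype was -0.53 at the early stage and 0.31 at the late stage. Dut did the same, at -0.17 early and 0.31 late, though after thinning its early ratio was 0.03 and its late ratio 0.11. With 1 library per group the difference between stages was not tested for either gene, and the 4 values rest on wildtype libraries that themselves differed by log2 ratios of -1.04 (Pclaf) and -0.57 (Dut).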

How the results depend on the processing

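Each AM and IM sum was recomputed under up to 13 alternatives, 2 of which (without cells with 2 or more Cd3 UMIs, and without cells with 3 or more mitosis UMIs) were added after seeing the data. Values are log2 ratios. The early AM ratio (-0.10) was -0.18 at most 5% mitochondrial UMIs, -0.070 with an alveolar marker share of 0.8%, -0.055 thinned to 2000 UMIs, 0.028 without mitosis cells and -0.047 in the authors' deposited table. The late AM ratio (-0.16) was -0.068 with Gm42418, Gm26917, mitochondrial and ribosomal protein genes out of the totals, -0.0077 with the median of ratios, -0.25 at most 5% mitochondrial UMIs and -0.20 without likely doublets. Wildtype late over early (-0.07) was -0.13, -0.19, -0.035, -0.027 and 0.14 with those genes out, the median of ratios, the 0.8% share, thinning and no mitosis cells. HER2 late over early (-0.12) was -0.055 without mitosis cells. In IM cells the early ratio (-0.64) was -0.31 at most 5% and -0.55 at most 20% mitochondrial UMIs, -0.51 without Cd3 cells and -0.087 without mitosis cells, and the late ratio (0.17) was 0.0071 thinned and -0.11 without mitosis cells. Counts at 1.2-fold followed the floor. The number of members past each other floor and the share of all genes called there are not given. Nothing about the members is therefore read from the counts at those floors. Early, lower members were 5 at 5 CPM, 1 at 20 CPM and 7 with none, and higher ones 1 with none. Late, lower members were 4 at 20 CPM, 14 with no floor and 4 with the median of ratios. In wildtype late over early, lower members were 9 at 5 CPM, 12 with no floor and 8 with the median of ratios. In HER2 late over early, higher members were 1 at 5 CPM and with none, and lower ones 5 at 5 CPM, 0 at 20 CPM and 10 with none. The median of members moved to -0.033 late with the median of ratios, and in wildtype late over early to -0.043 at 5 CPM and -0.10 with the median of ratios. Shares of AM cells, early wildtype and HER2 first and then the late libraries, were 25.7, 26.3, 28.7 and 24.7% for 2 UMIs, 5.61, 5.30, 4.79 and 4.14% for 5 UMIs, and 33.0, 32.7, 34.4 and 32.1% thinned to 4000 UMIs. Of 138 values of the sums, counts, medians and shares under an alternative, 51 moved and 87 did not. Of 600 values of the 12 members named by rule under an alternative, 564 stayed within their counting interval, 36 moved and 0 reversed past 1.2-fold. No paired analysis was possible because each group has 1 library, and for the same reason no library could be left out. Genes under the floor had 33 to 257 UMIs a library, and their intervals reach over 1.2-fold in width.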
